A study of Mus musculus with 8 samples.

Results

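The genes described here are 10 members of the ATF4 and CHOP arm of the stress response: Atf4, Ddit3 (which encodes CHOP), Trib3, Asns, Chac1, Sesn2, Psat1, Phgdh, Shmt2 and Ppp1r15a. They were taken by symbol, with every probe set annotated to them, which gave 25 of the 45037 probe sets that are not array controls. Of the 25, 23 carried 1 symbol and 2 also carried a pseudogene of Phgdh. A filter on low signal was passed by 23 of the 25, and each of the 10 genes kept at least 1 probe set.

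The cells were oligodendrocyte precursor cells of ICR mice, grown as mixed primary cultures from the cerebral hemispheres of embryos aged 15 days. Both groups spent 5 days in D-MEM with 10% serum and then 48 hr in serum-free medium, at 31.5 °C (4 arrays) or at 37 °C (4 arrays), with no other treatment and no engineered allele in either. The study compares hypothermic with normothermic culture. RNA came from 3 mice per group by the labels, which leave unstated how the 4 replicates arose; errors and p-values therefore measure the spread between these samples, which may be technical.

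When the endoplasmic reticulum is stressed, or amino acids or haem run short, kinases phosphorylate the translation factor eIF2. General protein synthesis then slows, while the messenger RNA of ATF4 is translated more, and ATF4 switches on genes for amino acid supply, together with CHOP. ATF4 is controlled largely at translation, which messenger RNA levels do not read. In the oligodendrocyte lineage this pathway is best known from diseases of myelin.

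The DNA element through which ATF4 and its C/EBP partners act has the core TGATGNAA. It was searched on both strands in windows of 250 bases before to 50 after the start of each gene (RefSeq, GRCm38.p6). Of the 10 members, which all had a window, 3 held a match (30.0%), against 4.51% of the 27025 genes with a window. The 3 matches are shown because these genes gave different values at 31.5 °C, with the match in capitals. The Chac1 stretch is at chr2:119351023-119351082 (plus strand), with the match at bases -193 to -186 from the start. The Asns stretch is at chr6:7693210-7693258 (minus strand), with the match at -23 to -16. The Trib3 stretch is at chr2:152344028-152344057 (minus strand), with the match 15 to 22 bases into the transcript.
Chac1: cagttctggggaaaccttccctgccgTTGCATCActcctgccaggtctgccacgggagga
Asns: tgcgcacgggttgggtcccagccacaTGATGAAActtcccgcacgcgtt
Trib3: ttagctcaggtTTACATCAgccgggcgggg
Read along the direction of each gene, Chac1 and Trib3 carry the core in reverse orientation and Asns in forward orientation. A match is a description of letters, not evidence of a bound site. The endoplasmic reticulum stress element (CCAAT and CCACG with 9 bases between them), also searched on both strands, was in 0 of the 10 member windows and in 0.137% of all genes.

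The arm did not move as a unit. Of the 10 genes, each read by its probe set of highest mean signal (the leading probe set), 1 rose at 31.5 °C and 0 fell in limma (adjusted p under 0.05 over all 22519 probe sets tested). Over all 11528 genes read the same way, 6.73% rose and 6.9% fell, so 1 of 10 is near the background. Without regard to any test, 7 members were above 0 and 3 below. Their median was 0.10 on the log2 scale (31.5 °C minus 37 °C), against -0.003 for all genes. Scaling the arrays to equal medians added 0.09 to each member difference, so that small values moved by over 1.5 times and the median became 0.19. The members' median size of change, regardless of sign, was 0.18, as it was over all genes tested.

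Arrays with the same replicate number deviated together, so each change is also given within the 4 pairs and, where the call differs, with the replicate number as a block in the limma fit. The block takes out level differences between pairs, so its p-values measure the spread of the within-pair differences. With the block, 2 of the 10 genes were called higher (Phgdh and Ppp1r15a) and 1 lower (Chac1), against 12.9% and 14% of all genes. Trib3 was then no longer called. In all 4 pairs 5 genes were higher at 31.5 °C and 2 were lower, against 25.3% and 25.2% of all genes. The 4 values at 31.5 °C all lay above the 4 at 37 °C for 3 genes and all below for 1, against 11.8% and 10.5%. By probe set, 11 of the 23 tested were higher in all 4 pairs and 4 lower, against 23.7% and 24.5% of all probe sets; 6 of the 11 are annotated to Phgdh. Further, 4 lay wholly above and 1 wholly below, against 10.9% and 10.2%.

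**Figure D1:**
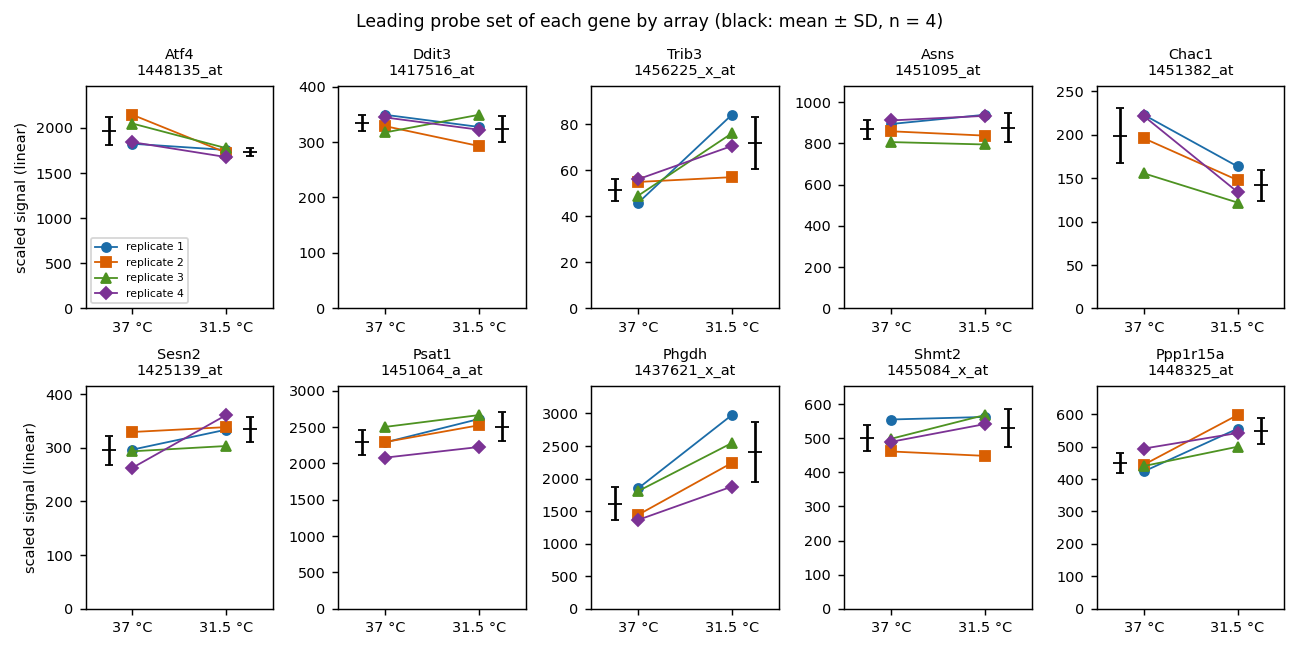
Scaled signal (linear axis from 0) of the leading probe set of each of the 10 genes at 37 °C and 31.5 °C, with a line joining the arrays of 1 replicate number and the mean ± SD (n = 4) in black. Phgdh rises along all 4 lines, from a mean of 1616 to 2410, Chac1 falls along all 4, from 199 to 142, and Asns is flat at 868 and 876.

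The 2 transcription factors come first. Atf4, the central activator of the arm, had a signal of 1756, 1726, 1776 and 1678 in replicates 1 to 4 at 31.5 °C (probe set 1448135_at). At 37 °C it was 1825, 2146, 2049 and 1843. All 4 cold arrays lay below all 4 warm ones, by a small margin. The log2 difference was -0.18 ± 0.09 (SE, limma adjusted p = 0.204, and 0.127 with the replicate block), or -0.09 with median scaling (adjusted p = 0.763), and it was -0.06, -0.31, -0.21 and -0.14 within pairs 1 to 4. A further Atf4 probe set, 1438992_x_at, gave 597 ± 111 (SD, n = 4) against 688 ± 66.6, a difference of -0.22 ± 0.14 (limma adjusted p = 0.353), with pair 4 slightly above 0. The remaining one, 1439258_at, was below the filter, at 1.45 to 3.23 on all 8 arrays, and reads no usable level.

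Ddit3 encodes CHOP, the factor that links lasting stress to growth arrest and cell death. Its leading probe set (1417516_at) read 327, 293, 349 and 322 at 31.5 °C. The warm arrays read 349, 329, 317 and 344. The groups overlapped fully, and the difference was -0.05 ± 0.09 (limma adjusted p = 0.724), a sign that turns under median scaling, to 0.03. The dim probe set 1443897_at read 38.9, 36.2, 51.6 and 31.4 in the cold. It read 56.8, 51.2, 76.7 and 39.9 in the warm. The groups overlapped because the pairs lie at different levels, but within each pair the cold array was lower, by -0.55, -0.50, -0.57 and -0.35. It did not pass without the block (-0.49 ± 0.21, limma adjusted p = 0.167) and passed with it (adjusted p = 0.0076, and 0.0205 to 0.0354 without any single pair). The changes of the 2 Ddit3 probe sets differed by -0.44, and by -0.45, -0.33, -0.71 and -0.25 within the pairs. An exact two-sided permutation test that ignores the pairs gave p = 0.143; the smallest p it can give is 0.0286, so that adjustment over 11 such comparisons leaves no single one able to pass.

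Trib3 and Ppp1r15a are the feedback genes of the arm. Trib3 encodes a pseudokinase that binds ATF4 and restrains it. Its leading probe set (1456225_x_at) read 84.0, 57.0, 76.0 and 70.5 at 31.5 °C. At 37 °C it read 45.8, 54.9, 48.9 and 56.0. The cold values all lay above the warm ones, with cold replicate 2 only just above. Trib3 rose 1.39-fold (0.47 ± 0.13, limma adjusted p = 0.0475), and the gain within pairs 1 to 4 was 0.88, 0.05, 0.64 and 0.33. The call was narrow: it held with 1 of the 8 arrays left out in turn (replicate 2 at 31.5 °C, adjusted p = 0.0259) and was lost without any of the other 7, with the block (adjusted p = 0.0547), with median scaling (adjusted p = 0.065) and without the filter (adjusted p = 0.105). Its other probe set, 1426065_a_at, read 56.0 ± 17.0 against 45.7 ± 19.7 (0.35 ± 0.34, limma adjusted p = 0.549; 0.11 to 0.55 when 1 array was dropped), higher in 4 of 4 pairs but mostly through pair 3, where the gain was 0.92.

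Ppp1r15a encodes GADD34, the subunit that directs a phosphatase to eIF2 and so reverses the first step of the pathway. It read 555, 597, 499.5 and 542 at 31.5 °C (1448325_at, the only probe set). The values at 37 °C were 423, 444, 440.0 and 494. Every cold array was above every warm one, by a small gap between replicate 3 in the cold and replicate 4 in the warm. The difference was 0.28 ± 0.09 (limma adjusted p = 0.0721), and 0.39, 0.43, 0.18 and 0.13 within the pairs. It passed with the block (adjusted p = 0.0497), but not with the block and any 1 pair left out (0.0688 to 0.151).

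Chac1 and Sesn2 act further downstream. Chac1 encodes an enzyme that breaks down glutathione and is among the usual readouts of ATF4 and CHOP activity. It read 163, 148, 122 and 134 at 31.5 °C (1451382_at, the only probe set). In the warm it read 223, 196, 156 and 221. The groups overlapped only through warm replicate 3, at 156, which lay under cold replicate 1. Within every pair the cold array was lower, by -0.45, -0.41, -0.35 and -0.72. The difference of -0.48 ± 0.14 did not pass as fitted (limma adjusted p = 0.0566) and passed with the block (adjusted p = 0.0131, and 0.0353 to 0.0465 without any single pair). It also passed without replicate 3 at 37 °C (adjusted p = 0.0235).

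Sesn2 encodes sestrin 2, which senses leucine and restrains growth signalling through mTORC1. It read 334, 339, 303 and 361 in the cold (1425139_at). In the warm it read 297, 329.5, 294 and 263. The cold arrays were higher in all 4 pairs with overlap between groups (0.18 ± 0.10, limma adjusted p = 0.266). The probe set 1451599_at gave 273 ± 34.8 against 255 ± 12.2 (0.10 ± 0.11, limma adjusted p = 0.601; 0.02 to 0.15 when 1 array was dropped), with pair 2 below 0.

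Asns encodes asparagine synthetase, a classic target of ATF4 through the element shown above. It read 939, 838, 795 and 934 at 31.5 °C (1451095_at). At 37 °C it read 894, 859, 807 and 911. The groups overlapped fully, and 2 pairs were above 0 and 2 below. The difference was 0.01 ± 0.09 (limma adjusted p = 0.95; -0.02 to 0.06 when 1 array was dropped). The probe set 1433966_x_at gave 555 to 699 against 554 to 649 (0.06 ± 0.11, limma adjusted p = 0.769; -0.01 to 0.10 when 1 array was dropped), with 1 pair, the fourth, clearly above 0 at 0.31. The 3 genes that share the core element in their windows thus differed. Trib3 had 0.47, a narrow call as fitted that was lost with the block. Asns had 0.01 and passed in neither fit, and Chac1 had -0.48 and passed with the block only.

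**Figure D2:**
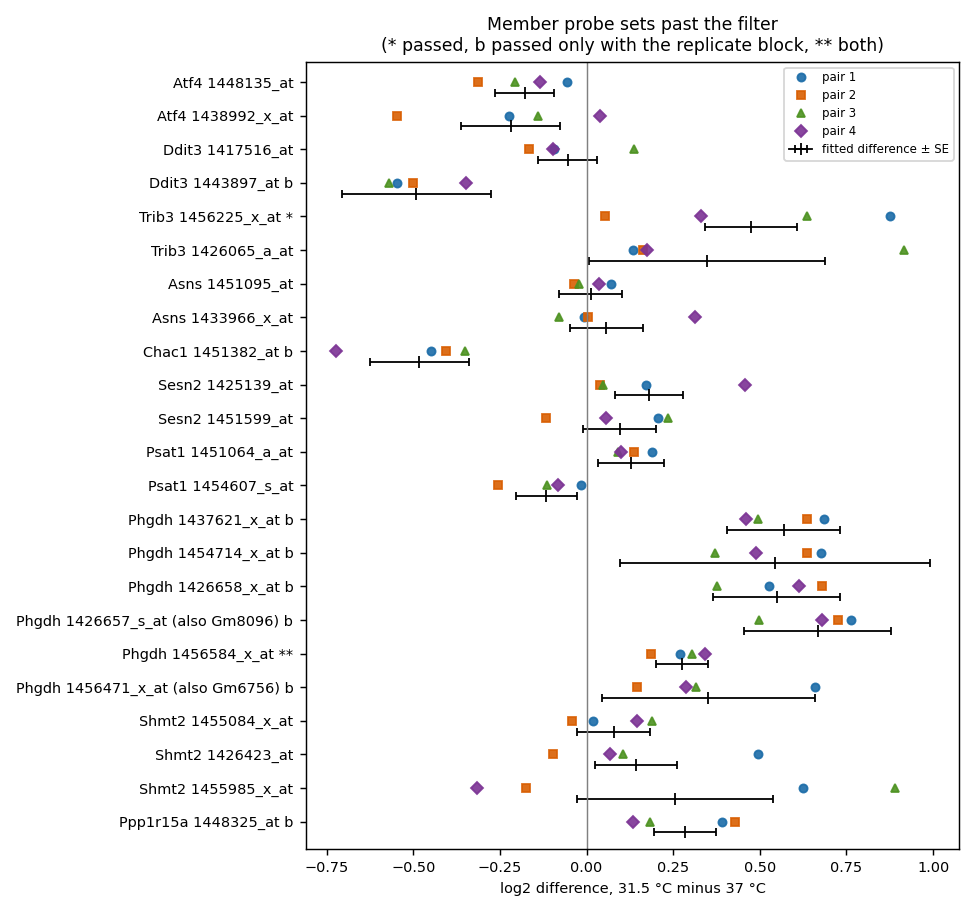
Log2 difference (31.5 °C minus 37 °C) of the 23 member probe sets past the filter, with 1 symbol per replicate pair and the fitted difference ± SE in black below. All 6 Phgdh probe sets lie to the right of 0 in every pair, and Chac1 and the dim Ddit3 probe set lie to the left in every pair.

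The 3 serine and glycine enzymes among the members follow. Phgdh encodes the enzyme that diverts a glycolytic intermediate into serine synthesis and sets the pace of that route. Its leading probe set (1437621_x_at) read 2976, 2241, 2546 and 1877 at 31.5 °C. The warm arrays read 1849, 1443, 1807 and 1365. All 4 cold arrays lay above all 4 warm ones, although cold replicate 4 was close to warm replicate 1. The signal was 1.48-fold higher (0.57 ± 0.16), just short of the threshold as fitted (limma adjusted p = 0.0513). It passed with the block (adjusted p = 0.00562, and 0.0198 to 0.0287 without any single pair), and within the pairs the gain was 0.69, 0.64, 0.49 and 0.46.

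The 6 probe sets annotated to Phgdh, of which 4 carry that symbol alone and 2 also a pseudogene, gave 6 positive values. The dimmer probe set 1456584_x_at read 591, 572, 569 and 573 in the cold. It read 490.3, 503, 460.1 and 452 in the warm. The groups were far apart for their spread, and the probe set rose by 0.28 ± 0.08 (limma adjusted p = 0.0456, up to 0.163 over the alternatives), a call lost when any 1 array was left out. Its change differed from that of the leading probe set by -0.29, with the same sign in 4 of 4 pairs (exact two-sided permutation p = 0.171 without the pairs). Probe set 1426658_x_at read 1577 ± 331 against 1078 ± 232 (0.55 ± 0.18, limma adjusted p = 0.0816, and 0.00708 with the block). With the block, the 4 with 1 symbol and the 2 shared ones passed, and in all 6 the cold array was higher in every pair. Leaving out any 1 pair ended the blocked limma calls of 1456584_x_at (adjusted p = 0.0615 to 0.107) and 1456471_x_at (0.0646 to 0.117). With the block on all 4 pairs, 7 of all 23 member probe sets were called higher and 2 lower, against 12.4% and 13.9% of all probe sets tested. Without the block the counts were 2 and 0, against 6.52% and 6.83%.

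Replicate pair 3 stood apart on some Phgdh probe sets at both temperatures. Probe set 1454714_x_at read 2349, 2117, 666 and 1416 in the cold. It read 1468, 1363, 515 and 1008 in the warm. Both arrays of pair 3 were the lowest of their group, while on the leading probe set both were the second highest. The change within pair 3 was nevertheless of the same direction, 0.37, and the gain over all pairs was 0.54 ± 0.45 (limma adjusted p = 0.468; 0.22 to 0.92 when 1 array was dropped), or adjusted p = 0.00765 with the block. The 2 probe sets shared with pseudogenes cannot tell Phgdh from the pseudogene. The other Phgdh probe sets all end in _x_at and can also bind related sequences. Of the 2 shared probe sets, 1426657_s_at (also Gm8096) read 1378 ± 334 against 868 ± 204 (0.67 ± 0.21, limma adjusted p = 0.0708, and 0.00424 with the block). The dimmer 1456471_x_at (also Gm6756) read 393 ± 135 against 303 ± 84.0 (0.35 ± 0.31, limma adjusted p = 0.494, and 0.0477 with the block; 0.11 to 0.60 when 1 array was dropped), again lowest in pair 3 at both temperatures.

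**Figure D3:**
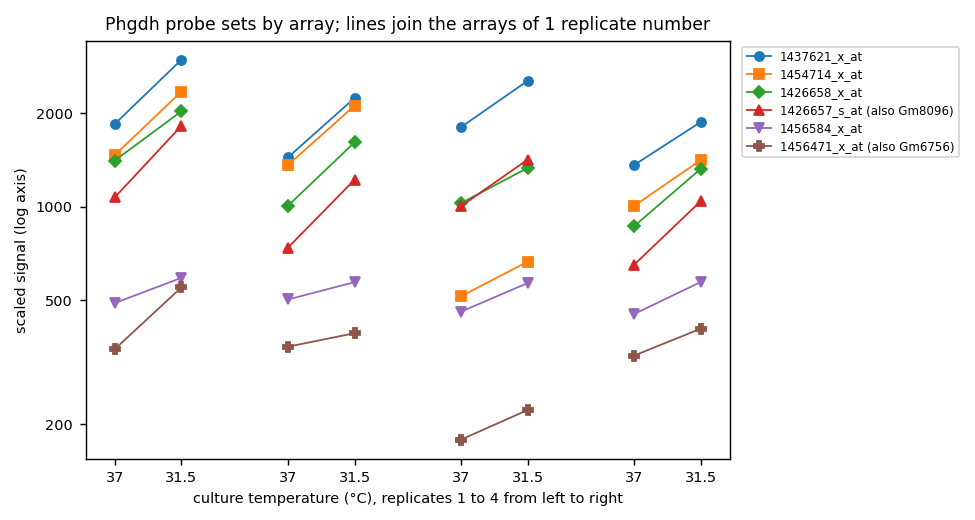
Scaled signal (log axis) of the 6 probe sets annotated to Phgdh on the 8 arrays, with the 37 °C and 31.5 °C arrays of replicates 1 to 4 side by side and joined. Every line rises towards 31.5 °C, and in replicate 3 the probe sets 1454714_x_at and 1456471_x_at sit lower than in the other replicates at both temperatures.

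Psat1 encodes the aminotransferase of the second step of serine synthesis. Its leading probe set (1451064_a_at) read 2611, 2525, 2665 and 2226 at 31.5 °C. The values at 37 °C were 2289, 2294, 2502 and 2079. Each cold array was above its own pair's warm array, by 0.09 to 0.19, and the groups overlapped (0.13 ± 0.10, limma adjusted p = 0.414). The probe set 1454607_s_at had the opposite sign, at 1288 ± 60.6 against 1399 ± 106 (-0.12 ± 0.09, limma adjusted p = 0.422), lower in all 4 pairs. The second differed from the first by -0.25, and by -0.20, -0.39, -0.20 and -0.18 within the pairs (exact two-sided permutation p = 0.0857 without the pairs). The direction of Psat1 is therefore not settled by these arrays.

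Shmt2 encodes the mitochondrial enzyme that splits serine into glycine and a one-carbon unit. Its leading probe set (1455084_x_at) read 562, 448, 568 and 541 in the cold. In the warm it read 555, 461, 498 and 489. The groups overlapped, and pair 2 was below 0 (0.08 ± 0.11, limma adjusted p = 0.677; 0.04 to 0.16 when 1 array was dropped). Probe set 1426423_at gave 336 ± 37.4 against 305 ± 33.2 (0.14 ± 0.12, limma adjusted p = 0.472; 0.07 to 0.22 when 1 array was dropped). Probe set 1455985_x_at gave 68.2 ± 7.25 against 61.1 ± 24.6 (0.26 ± 0.28, limma adjusted p = 0.602), a sign that turns without replicate 3 at 37 °C. The fourth, 1434204_x_at, was under the filter, at 24.3 to 37.7 against 14.6 to 25.8, and was not tested.

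The wider pathway was read through 7 lists of genes, each by its leading probe set. Of the 92 genes tested, 7 rose and 9 fell. The replicate block gave 17 higher and 14 lower. No set test was made, and the counts stand beside the shares for all genes given above.

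Upstream, 1 of 15 genes of the eIF2 kinases, eIF2, eIF2B and their regulators rose and 0 fell, with a median of 0.06 (0.15 with median scaling, 0.03 to 0.11 when 1 array was dropped). Eif2b3, a subunit of the exchange factor that recharges eIF2, read 380.3, 421, 411 and 358 in the cold. It read 253, 258, 256 and 224 in the warm. The groups were far apart, and it rose 1.58-fold (0.66 ± 0.09, limma adjusted p = 0.00341, under 0.05 in all 21 alternatives). Mutations of eIF2B subunits are known to cause a leukodystrophy, a loss of white matter. The kinase PERK (Eif2ak3), which senses stress of the endoplasmic reticulum, was at 557 ± 30.3 against 487 ± 42.8 (0.20 ± 0.09, limma adjusted p = 0.196). Eif2s2 and Eif2b1, a subunit each of eIF2 and eIF2B, had 0.22 (limma adjusted p = 0.111) and 0.20 (adjusted p = 0.176).

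Among 9 bZIP factors that pair with ATF4 or CHOP or act beside them, 0 rose and 2 fell, with a median of -0.16 (-0.07 with median scaling). Atf3, a stress-induced repressor downstream of ATF4, read 299.7, 334, 359 and 344 in the cold. It read 439, 401, 586 and 484 in the warm. No values overlapped, and it fell by 0.50 on the log2 scale (± 0.13, limma adjusted p = 0.0339, up to 0.103); the call was lost without any 1 array except replicate 2 at 37 °C. Cebpg, a dimerisation partner of ATF4, fell from 379.9 ± 13.1 to 299 ± 20.5 (-0.35 ± 0.08, limma adjusted p = 0.0278, up to 0.262 with median scaling). Its call was kept only without replicate 4 at 31.5 °C or replicate 1 at 37 °C among the 8 fits with 1 array left out. Cebpa, a further C/EBP factor, had -0.40 ± 0.26 (limma adjusted p = 0.357; -0.62 to -0.25 when 1 array was dropped). Atf5 and Cebpb had 0.06 (limma adjusted p = 0.885; -0.15 to 0.18 when 1 array was dropped) and -0.14 (adjusted p = 0.413; -0.19 to -0.08).

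Of 15 other stress genes known as targets of ATF4 or CHOP, 1 rose and 0 fell. The replicate block gave 5 higher and 0 lower. Their median was -0.01, or 0.08 with median scaling (-0.06 to 0.08 when 1 array was dropped). The 1 was Hmox1, the haem-degrading enzyme, which is also a textbook target of NRF2. It rose from 2310.0 ± 318 to 3875 ± 474 (0.75 ± 0.13, limma adjusted p = 0.00758, under 0.05 in all 21 alternatives). Sqstm1, an autophagy receptor, had 0.32 ± 0.10 (limma adjusted p = 0.059, and 0.035 with the block), and Ero1a, an oxidase of disulfide formation, 0.38 ± 0.12 (adjusted p = 0.072, and 0.0221 with the block).

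Amino acid transporters held the largest single change among the tested genes of these lists. Of 9 tested, 3 rose, 0 fell and the median was 0.34. The replicate block gave 4 higher and 2 lower. Slc7a11, the cystine importer, read 382, 376, 383 and 254 in the cold. It read 171, 162, 189 and 116 in the warm. Every pair showed nearly the same gain, 1.16, 1.21, 1.02 and 1.13 on the log2 scale, and the gene rose 2.19-fold (1.13 ± 0.19, limma adjusted p = 0.00729). It is also a known NRF2 target, and its window held the core element at 2 places, starting at bases -66 and -47. Of the 6 transporters with a promoter window, 2 held the core (33.3%). The window of Atf3, which fell, also held it, starting at base -110.

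Slc7a5, the transporter of large neutral amino acids such as leucine, rose from 495 ± 44.0 to 970.2 ± 173 (0.96 ± 0.14, limma adjusted p = 0.00449). Slc3a2, the heavy chain that both carriers need, rose from 1817 ± 109 to 2454 ± 239 (0.43 ± 0.10, limma adjusted p = 0.0226, up to 0.0873). Without replicate 1, 2 or 3 at 31.5 °C, or 2 or 4 at 37 °C, Slc3a2 was not called. With the block in limma it passed (adjusted p = 0.0101, and 0.0253 to 0.044 without any single pair). By contrast Slc38a2, a glutamine transporter that amino acid shortage induces, was at 2431 ± 161 against 3063 ± 274 (-0.33 ± 0.10, limma adjusted p = 0.0544, and 0.0212 with the block).

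**Figure D4:**
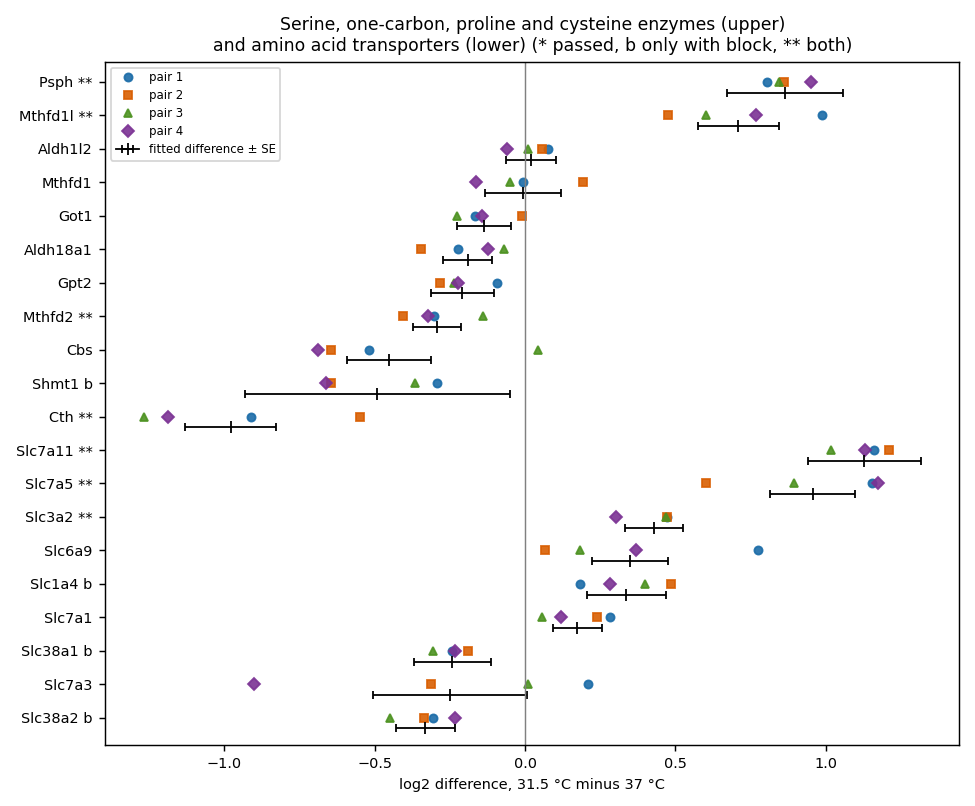
Log2 difference (31.5 °C minus 37 °C) of 11 enzymes (upper) and 9 amino acid transporters (lower), with 1 symbol per replicate pair and the fitted difference ± SE in black. Psph, Mthfd1l, Slc7a11, Slc7a5 and Slc3a2 lie right of 0 in every pair, and Cth and Mthfd2 left of 0 in every pair.

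The enzymes of serine, one-carbon, proline and cysteine metabolism split in direction: of 11 tested, 2 rose, 2 fell and 7 did not pass, with a median of -0.19 (-0.10 with median scaling). The replicate block gave 2 higher and 3 lower, the third being Shmt1, the cytosolic counterpart of Shmt2 (-0.49 ± 0.44, limma adjusted p = 0.509, and 0.0148 with the block; -0.87 to -0.19 when 1 array was dropped). Psph, the phosphatase of the last step of serine synthesis, read 1632, 1214, 1373 and 1037 in the cold. It read 935, 668, 765 and 536 in the warm. No values overlapped, and Psph rose 1.82-fold (0.87 ± 0.19, limma adjusted p = 0.0215, up to 0.0709). The call was lost without replicate 1 or 3 at 31.5 °C or replicate 2 at 37 °C. With the block in limma it passed (adjusted p = 0.00202, and 0.0114 to 0.0148 without any single pair). Along the 3 steps of serine synthesis, Psph thus rose, Phgdh was 0.57 higher and passed with the block only, and Psat1 had no settled direction.

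Of 3 mitochondrial one-carbon enzymes in the list, 2 passed, with opposite signs. Mthfd1l, which makes formate there, rose from 133 ± 21.9 to 216 ± 24.1 (0.71 ± 0.13, limma adjusted p = 0.0119). Mthfd2, which acts upstream of it and is a usual ATF4 target, fell from 219 ± 11.3 to 178 ± 6.22 (-0.29 ± 0.08, limma adjusted p = 0.0413). That fall was weaker under other settings, with adjusted p up to 0.433 under median scaling, and with 1 array left out it was called only without replicate 3 at 37 °C. The third, Aldh1l2, which oxidises formyl groups to carbon dioxide, had 0.02 ± 0.08 (limma adjusted p = 0.908; -0.02 to 0.05 when 1 array was dropped). Cth, which makes cysteine from cystathionine, read 72.3, 69.4, 50.3 and 51.8 in the cold. It read 136, 102, 121 and 118 in the warm. The groups were well apart, and Cth fell by 0.98 on the log2 scale (± 0.15, limma adjusted p = 0.00537). The cystine importer Slc7a11 and the cysteine-making enzyme Cth thus had opposite signs.

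Cytosolic aminoacyl-tRNA synthetases, which load amino acids onto tRNA and of which several are ATF4 targets, did not pass: 0 of 19 rose and 0 fell, while 15 of the 19 lay above 0 and the median was 0.11 (0.20 with median scaling). With the block 5 were called higher and 0 lower. The smallest p was that of Gars1, for glycine, at 1479 ± 18.0 against 1243 ± 42.4 (0.25 ± 0.07, limma adjusted p = 0.0526, and 0.0408 with the block). Aars1, for alanine, had 0.29 ± 0.10 (limma adjusted p = 0.0952, and 0.0481 with the block) and Qars1, for glutamine, 0.29 ± 0.12 (adjusted p = 0.161, and 0.0446 with the block). Of the 13 with a promoter window, 5 held the core element (38.5%).

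The ATF6 and IRE1 arms, the other branches of the unfolded protein response, lay mostly below 0: of 14 genes, 0 rose and 5 fell, and 12 had a negative value (median -0.23, or -0.14 with median scaling). The replicate block gave 0 higher and 7 lower, adding the chaperone Hspa5 (adjusted p = 0.03) and the disulfide isomerase Pdia4 (adjusted p = 0.0139), and 10 of the 14 were lower in all 4 pairs. The 5 were Xbp1, the factor of the IRE1 arm (-0.44), Hsp90b1, a chaperone (-0.52), Sdf2l1 (-0.96), Creld2 (-0.29) and Manf (-0.37), with limma adjusted p from 0.00959 for Hsp90b1 to 0.0485 for Creld2. Median scaling ended the calls of all but Sdf2l1, at adjusted p from 0.0786 for Hsp90b1 to 0.429 for Creld2. Without any 1 array Creld2 was not called. Manf was called only without replicate 2 or 4 at 37 °C, and Xbp1 was lost without replicate 1 or 2 at 31.5 °C. In this list 4 of the 12 genes with a promoter window held the endoplasmic reticulum stress element and 0 held the ATF4 core. The median of the ATF4 and CHOP members was 0.10 beside it, or 0.19 with median scaling. The difference between the lists was not tested.

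**Figure D5:**
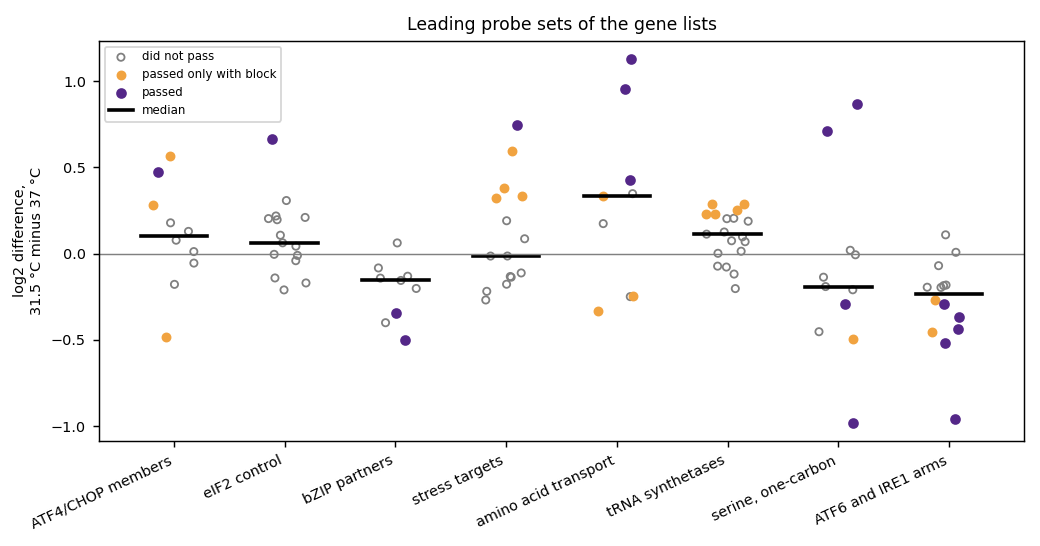
Log2 difference (31.5 °C minus 37 °C) of the leading probe set of each tested gene, by list, with the list's median as a bar; purple points passed, orange points passed only with the replicate block, and open points did neither. The members spread from -0.48 to 0.57 around a median of 0.10, the transporters reach 1.13, and the ATF6 and IRE1 genes lie mostly below 0.

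The 3 genes whose 8 values lay closest to those of Atf4, after each was centred on its own mean, were Mtrr, Ubqln1 and Anp32b, among 11527 genes ranked. Their root mean square distances from Atf4 were 0.028, 0.036 and 0.043 on the log2 scale. Like Atf4, which fixed the choice, none of the 3 passed (limma adjusted p = 0.254, 0.118 and 0.249).

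The whole-series facts that touch these values are few. The trimmed mean of the deposited signal ran from 189 to 238 at 31.5 °C and from 132 to 248 at 37 °C, with the lowest in replicate 4 at 37 °C. Precision is limited by having 4 arrays a group. The 3′ to 5′ ratio of the actin control was 1.17 to 1.27 in the cold and 1.20 to 1.30 in the warm. All 8 precursor markers were past the filter, of which 2 rose, 1 fell and 5 lay below 0, with a median of -0.11. The fall was in Gpr17, a receptor of committed precursors, at 1509 ± 91.5 against 2713 ± 308 (-0.84, limma adjusted p = 0.00217). The rises, in Pdgfra, the growth factor receptor of precursors (0.45, limma adjusted p = 0.0444), and Lhfpl3 (0.67, adjusted p = 0.0427), were each called in 2 of 8 fits with 1 array left out. With the block in limma both passed, at adjusted p = 0.00944 for Pdgfra and 0.00374 for Lhfpl3.

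Markers of other cells were measured beside the members, since a mixed culture holds several types and bulk arrays cannot tell fewer cells of a type from less RNA per cell. All 6 tested markers of differentiating oligodendrocytes fell, but with 1 array left out Cnp was called in 4 and Ugt8a in 2 of 8 fits. The summed signal of the 6 and of Mog, which was below the filter, was also lower. It was 9494 to 13590.3 in the cold and 18864 to 23515 in the warm. Astrocytes are known to express Phgdh strongly. Of their 8 markers, 6 were tested, 0 passed and 6 of 6 were below 0, with a summed signal of 6232 to 11573 at 31.5 °C and 8162 to 16143 at 37 °C; Gjb6 and Gjb2 were below the filter. With the block 4 astrocyte markers were called lower, while Phgdh was called higher. Of 7 microglia markers tested 0 passed (2 lower with the block), and among 8 neuron markers 1 rose and 1 fell (1 higher and 3 lower with the block). Of 6 fibroblast and 2 endothelial markers 0 passed (2 and 1 lower with the block). Their part in the changes of the members was not tested.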

How the data were processed

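The 8 RNA samples were read on Affymetrix mouse arrays, 1 each. The deposited table holds linear intensity values per probe set, which the authors derived by MAS5 according to the submitters' processing notes, with no version or scaling target. Genome build: not given in the sources used here. Of 45101 probe sets, 64 controls were left out. Arrays were brought to 1 trimmed mean (2% off each end, the average over the 8), a floor was set at the 25th percentile (9.80), and the log2 of each value was used. Probe sets with a mean at or above the median (38.2) were tested: 22519, or 11528 leading ones.

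The fit was limma 3.58.1 (lmFit, eBayes, two-sided) in R 4.3.3, with temperature as the only term, Benjamini-Hochberg adjustment over all probe sets and a threshold of 0.05. Replicate numbers pair the arrays: deviations from the group means correlated at 0.385 to 0.578 between arrays of 1 number and at most at 0.00334 between others. The 11 comparisons of a gene's probe sets used exact permutation tests over unpaired arrays, in which no single difference could pass after adjustment. The procedure was tested on simulated arrays drawn without replicate pairs, with planted changes larger than those of the members. That test does not cover paired arrays or changes of the size seen here.

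Members, lists and tests were chosen with earlier results of these data known. Named are all members, of each list up to 3 genes of smallest p and all passing where 5 or fewer did, and the 3 patterns closest to Atf4; other genes in the text were named after their values were seen. For 16 list genes an older symbol was matched, and 5 list genes are not analysed here. Probe sets ending in _x_at or _s_at can also bind related sequences. The 21 alternatives were quantile and median scaling, no floor (pseudocount 1), the floor moved to the 50th percentile, the filter dropped or moved to the 70th, 1 probe set per gene, _x_at and _s_at left out, the replicate block, and omission of single arrays, or of single pairs with the block. Arrays left out were still used for scaling and filter. Plots used matplotlib 3.10.9 (Python 3.11.15).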

Additional observations from a re-analysis of the deposited data

Results flagged for a closer look

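The Phgdh probe set 1456471_x_at, which also carries the pseudogene Gm6756, read 178 in replicate 3 at 37 °C, far below the nearest other array of that group at 332. This gap was 0.873 of the range of the 4 arrays. It was the 1 such array among 50 groups of 4 examined (25 probe sets at 2 temperatures). Chance gives about 1 in 20 groups, so 1 among 50 is no more than chance gives. The matching array at 31.5 °C was also the lowest of its group on this probe set, at 222.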

How the results depend on the processing

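As processed, 1 member gene rose and 0 fell, 2 member probe sets rose and 0 fell, and in the wider lists 7 genes rose and 9 fell. With the replicate block the same counts were 2 and 1, 7 and 2, and 17 and 14. With median scaling 0 member genes and 0 member probe sets were called, while in the wider lists 6 genes rose and 2 fell. Member genes that rose numbered 0 with no filter or without _x_at and _s_at probe sets, and 2 with quantile scaling, a floor at the 50th percentile, a filter at the 70th percentile or 1 probe set per gene. The last 2 settings also gave 1 fall. Member probe sets that rose numbered 1 with no filter, 0 without _x_at and _s_at and 4 with the filter at the 70th percentile, which gave 1 fall and, in the wider lists, 11 rises. The 2 probe sets called as processed, Trib3 1456225_x_at and Phgdh 1456584_x_at, were themselves removed without _x_at and _s_at, and so were not retested. Trib3 was also not tested with the filter at the 70th percentile, so the rises there are of other genes. With 1 array left out, member genes ranged from 0 to 1 rises and 0 to 1 falls, member probe sets from 0 to 2 and 0 to 1, and the wider lists from 5 to 8 and 3 to 6. With the block and 1 pair left out, these ranges were 1 to 2 and 1 to 1, 4 to 5 and 2 to 2, and 7 to 9 and 5 to 9. Signs turned for 4 probe sets, none of which passed: Ddit3 1417516_at was 0.035 with median scaling; Asns 1451095_at was -0.0075 with quantile scaling and -0.022 to 0.058 with 1 array left out, and -0.0072 with the block and without pair 1; Asns 1433966_x_at ranged from -0.0073 to 0.10 with 1 array left out and went to -0.028 with the block and without pair 4; Shmt2 1455985_x_at ranged from -0.021 (without replicate 3 at 37 °C) to 0.43. Leaving out arrays lowers precision but did not always lower the counts. Rises in the wider lists reached 8 with 1 array left out, against 7 as processed. The cause of these differences was not tested. The signal over background limits Trib3, the dim Ddit3 probe set and 2 Shmt2 probe sets, which lie near the filter.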
